A study of Drosophila melanogaster with 16 samples.

Results

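Naïve Drosophila melanogaster embryos that overexpress Wingless (Wg++) were compared with naïve embryos that overexpress Off-track (Otk++), so that the canonical Wnt ligand was set against a receptor of the non-canonical branch. All genes with a probeset that maps to 1 gene entered the comparison, and 4 of the 16 arrays of the series belong to it, 2 for Wg++ and 2 for Otk++. Of 11982 genes with such a probeset, 11893 lie on the major chromosome arms, and 8860 of these exceeded 2.5 on the log2 scale in 2 or more arrays. With 11 Wnt pathway genes whose probeset carries no gene in the platform annotation, such as wg itself, 8871 genes were tested. Both genotypes came from mothers mutant for bcd E1, nos L7 and tsl 146 that carried da-Gal4. These mothers were crossed to UAS-Wg for Wg++ and to UAS-Otk for Otk++. The naïve control, labelled WT, shares the maternal mutations and expresses no transgene. The embryos lack the maternal cues for head, tail and termini, the da-Gal4 driver is active in nearly all cells, and each array holds RNA of pooled embryos aged approximately 4 to 16 h. The 2 arrays of a genotype are biological replicates according to the titles, and p-values measure the spread between such arrays only.

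Wg is a secreted ligand that binds Frizzled and Arrow receptors, which stabilises Armadillo, the fly beta-catenin, and lets it act with the transcription factor TCF, encoded by pan. In the embryonic epidermis this canonical route is known for specifying smooth cuticle between the belts of denticles. Otk is a transmembrane pseudokinase related to vertebrate PTK7 that takes part in Wnt signalling independent of Armadillo and is known for roles in axon guidance and cell polarity.

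In this comparison 1593 genes were higher in Wg++ and 1624 were lower, by limma's test with a fold change beyond 1.5 in either direction and an FDR under 10%. These calls cover 36.3% of the genes tested, 18.0% in the higher and 18.3% in the lower direction, and the median difference over all genes was -0.009 on the log2 scale. Cyclic loess between arrays moved the share of calls that were higher from 49.5% to 59.6%. The count fell to 1932 without Wg++ replicate 1, to 1734 without Otk++ replicate 2 and to 2041 when only these 4 arrays were fitted. The log2 difference exceeded 1 for 1027 of the higher and 1004 of the lower genes, and it exceeded 3 for 49 and 110 of them. The 2 Wg++ arrays and the 2 Otk++ arrays did not overlap for 68.8% of all genes tested, Wg++ lying above in 33.3% and below in 35.5%. All 3217 called genes are among them. For any called gene named below, the separation of Wg++ from Otk++ arrays thus follows from the call and adds no support to it. Against WT, in comparisons that share the Wg++ or the Otk++ arrays with this one, the same rule called 40.9% of genes in Wg++ and 0.327% in Otk++, the latter made up of 0.124% higher and 0.203% lower. The 29 genes called in Otk++ became 841 without WT replicate 2 and 2 without WT replicate 1 or Otk++ replicate 1. Across genes, the 2 Wg++ arrays correlated at 0.984, the 2 Otk++ arrays at 0.961, and arrays of different genotype at 0.845 to 0.916. The median SD between replicates was 0.138 in Wg++ and 0.264 in Otk++.

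**Figure D1:**
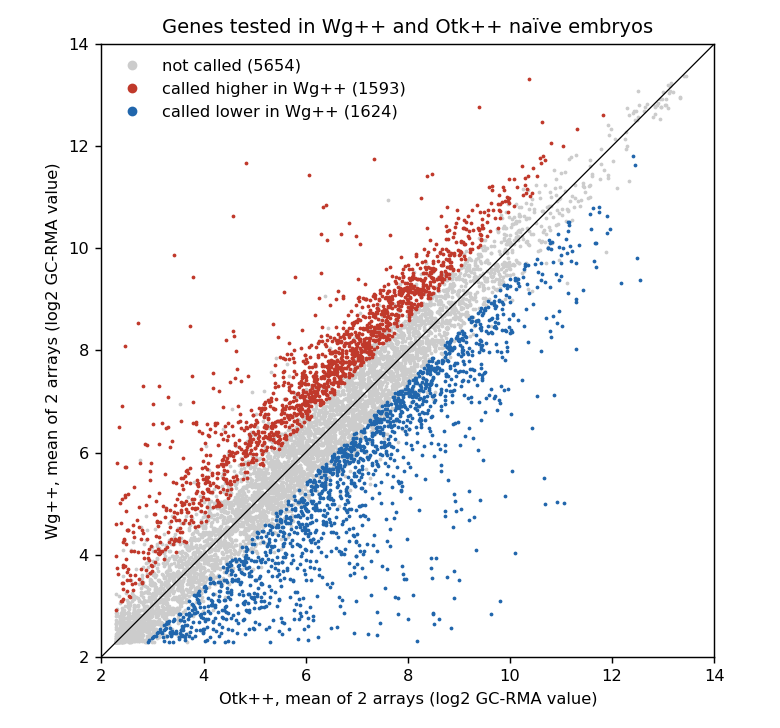
Mean log2 GC-RMA value of each of the 8871 genes tested in Otk++ (x axis) and Wg++ (y axis), 2 arrays each, with 1593 genes called higher in Wg++ in red, 1624 called lower in blue and the line of equal values in black. The lower calls reach further from the line than the higher ones, 110 against 49 genes beyond a log2 difference of 3.

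The overexpressed genes were read first. Transcript of wg, which encodes the ligand, read 10.15 and 10.04 in the Wg++ arrays, 7.26 and 6.86 in the Otk++ arrays and 6.43 and 6.4 in the WT arrays. Both Wg++ arrays stood above all others, with a difference from Otk++ of 3.03 (standard error 0.29, adjusted p = 0.000162). For otk the Otk++ arrays read 7.62 and 7.67, the Wg++ arrays 5.51 and 6.29 and the WT arrays 6.69 and 7.33. The otk transcript was lower in Wg++ than in Otk++, with a difference of -1.75 on the log2 scale (standard error 0.3, adjusted p = 0.00253), while Otk++ did not pass the test against WT (difference 0.64, adjusted p = 0.319). It is not known if this probeset reads the otk transgene, and the Otk++ label therefore has no check from otk. Of the maternally mutant genes, bcd read 7.68 and 8.17 in Wg++ and 6.17 and 5.11 in Otk++, and its call (2.29, adjusted p = 0.0358; 2.04 on a brighter probeset) was lost without Wg++ replicate 2 and without Otk++ replicate 2. The tsl transcript was lower in Wg++ (-1.44, adjusted p = 0.0209), a call lost without Wg++ replicate 1 and without Otk++ replicate 2. nos is not analysed here.

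The 10 genes that rose most in Wg++ gained 4.49 to 6.83 on the log2 scale, and 8 of them are known only by CG numbers. CG13947, the gene with the largest rise, read 11.67 and 11.65 in Wg++, 3.99 and 5.67 in Otk++ and 6.44 and 6.38 in WT (difference 6.83, standard error 0.73, adjusted p = 0.000237). Its neighbours CG13946 and CG12506 on chromosome arm 2L, with no other protein-coding gene starting between the 3, rose by 6.07 and 6.45. The probeset of CG13947 is of a kind that can bind related transcripts, so its value may hold signal of these neighbours. In all 3 genes both Wg++ arrays were far above the Otk++ arrays, and the WT arrays lay between the 2 genotypes.

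CG13460 and CG13461, which flank 3 other protein-coding genes on arm 3L, rose by 5.83 and 5.63. CG13460 read 8.34 and 8.75 in Wg++ but 2.75 and 2.68 in Otk++, where it was close to the lowest value the arrays give, so the size of its difference is uncertain. Mco4, which encodes a multicopper oxidase, showed the steadiest large rise, from 2.39 and 2.51 in Otk++ to 8.15 and 8.01 in Wg++ (difference 5.62, standard error 0.27, adjusted p = 4.28e-06). Here too the Otk++ level was near the floor of the arrays. CG4367 behaved likewise, at 7.23 and 6.59 in Wg++ and 2.34 and 2.48 in Otk++ (difference 4.5, adjusted p = 0.000135).

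Chitin-binding proteins made up the rest of this group. CG10725 and its immediate neighbour CG10140, which both encode proteins with chitin-binding peritrophin domains, rose by 5.37 (adjusted p = 0.000287) and 4.49 (adjusted p = 1.06e-05), the latter from a level near the floor. Peritrophin-15a, named for the proteins of the membrane that lines the gut, read 8.62 and 8.35 in Wg++, 3.03 and 4.43 in Otk++ and 7.16 and 5.8 in WT. Its neighbour Peritrophin-15b rose by 3.56 (adjusted p = 0.0029). For both peritrophins the Otk++ arrays lay below the WT arrays as well as below the Wg++ arrays.

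**Figure D2:**
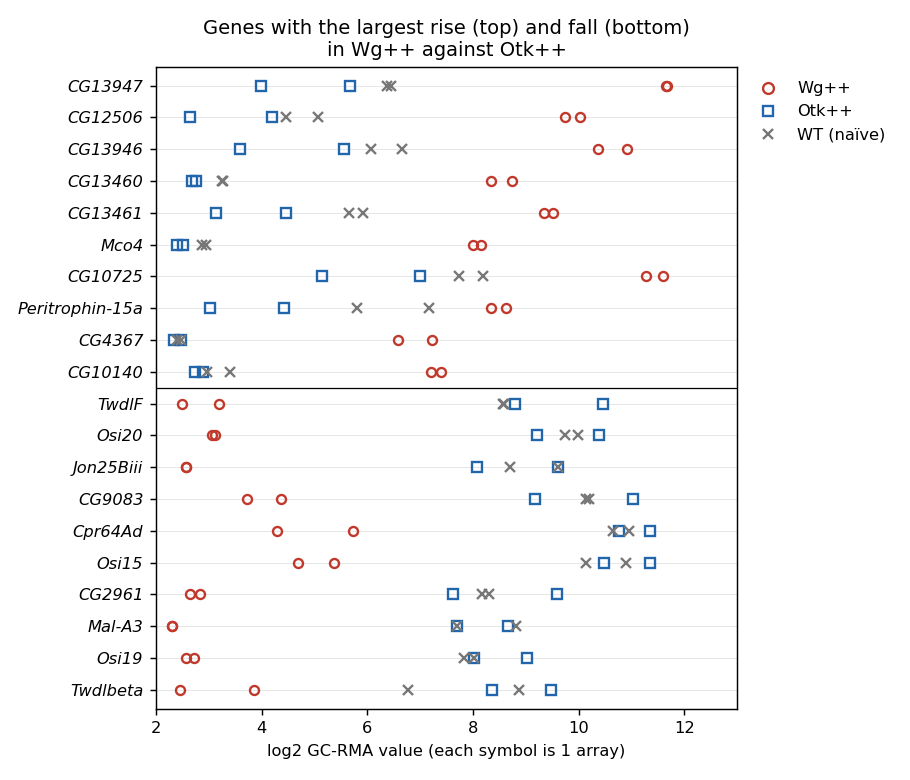
Log2 GC-RMA value of each array of Wg++ (red circles), Otk++ (blue squares) and WT (grey crosses) for the 10 genes with the largest rise, above the line, and the 10 with the largest fall, below it. The 20 genes were picked among calls whose Wg++ and Otk++ arrays do not overlap, so that separation follows from the choice. In the 10 falls the WT means, 7.82 to 10.80, are far above the Wg++ means, 2.31 to 5.03.

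The 10 genes that fell most in Wg++ lost 5.76 to 6.78 on the log2 scale and belong mainly to the cuticle and the larval gut. TwdlF, of the Tweedle family of cuticle proteins, read 2.49 and 3.19 in Wg++, 8.79 and 10.46 in Otk++ and 8.58 and 8.57 in WT (difference -6.78, standard error 0.57, adjusted p = 8.86e-05). Osi20, of the insect Osiris family of secreted or membrane proteins expressed with the cuticle, read 3.06 and 3.12 in Wg++ and 9.22 and 10.38 in Otk++ (difference -6.71, adjusted p = 5.67e-05). Jon25Biii, a serine protease of the gut, read 2.57 and 2.58 in Wg++ and 8.07 and 9.62 in Otk++ (difference -6.27, adjusted p = 8.86e-05). For TwdlF, Jon25Biii, Mal-A3 (maltase, -5.87), Osi19 (-5.86) and CG2961 (-5.88) the Wg++ mean was under 3, close to the lowest value of 2.2892, while Otk++ and WT gave strong signal. Cpr64Ad, a cuticle protein with the chitin-binding RR domain, kept more signal, with 4.29 and 5.72 in Wg++ against 10.77 and 11.34 in Otk++ (difference -6.05, adjusted p = 0.00011). Among all calls, 197 lower genes had a Wg++ mean under 3 and 89 higher genes an Otk++ mean under 3, and the sizes of their differences are uncertain.

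Tweedle and Osiris genes fell together. Of 34 tested members 22 were lower in Wg++, 1 was higher and 11 did not pass, which put 64.7% in the lower direction beside 18.3% of all genes. Their median difference was -2.35 beside -0.009 over all genes. The list averaged 5.3 and 5.62 in the Wg++ arrays, 7.64 and 8.35 in the Otk++ arrays and 7.21 and 7.72 in the WT arrays. The lower count ranged from 19 to 25 when single arrays were left out. Osi15, which read 5.38 and 4.68 in Wg++ and 10.48 and 11.35 in Otk++, Osi19 and Osi20 lie in 1 stretch of arm 3R that holds the Osiris genes. Osi15 fell by a difference of -5.88 (adjusted p = 4.68e-05) and Twdlbeta by one of -5.76 (adjusted p = 0.00137). The single member that was higher, Twdlalpha, was picked out after its value was seen (2.22, adjusted p = 0.018), and its call was lost without Otk++ replicate 1.

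Cuticle proteins with the RR domain moved both ways. Of 57 tested, 18 were lower (31.6% beside 18.3% of all genes) and 6 higher (10.5% beside 18.0%). Their median was -0.28 (-0.6 without Otk++ replicate 1 and -0.1 without Otk++ replicate 2). Without Wg++ replicate 1 or Otk++ replicate 2 the lower count was 9, and without Otk++ replicate 1 the higher count was 3. Ccp84Ae read 3.44 and 4.73 in Wg++ and 9.05 and 9.63 in Otk++ (difference -5.26, adjusted p = 0.000479). Ccp84Ag, from the same gene cluster, differed by -2.12 (adjusted p = 0.000938). Cpr67Fa1 read 5.42 and 5.39 in Wg++, 7.7 and 7.97 in Otk++ and 6.17 and 6.2 in WT (difference -2.43, adjusted p = 0.000342), and the WT arrays lay between the others.

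Genes of chitin synthesis and assembly also split, with 11 of 25 lower (44.0%) and 3 higher (12.0%) in Wg++. Over all genes 18.3% were lower and 18.0% higher. The median of the list was -0.93 (-0.54 without Otk++ replicate 2 and -1.47 without Wg++ replicate 2). The fall included obst-B, which encodes a chitin-binding matrix protein, at 4.41 and 5.25 in Wg++ and 7.45 and 8.1 in Otk++ (difference -2.95, adjusted p = 0.000449), and knk, whose product protects and organises chitin (-1.84, adjusted p = 0.00115). The 2 largest rises were in the related obst-G, at 6.75 and 6.25 in Wg++ and 2.29 and 2.39 in Otk++ (difference 4.16, adjusted p = 1.93e-05), and obst-J (3.73, adjusted p = 0.000298). Members of 1 family of chitin-binding proteins therefore lay on opposite sides, and obst-G was near the lowest value in Otk++. Peritrophins and mucins were split in the same manner, with 4 of 14 higher (28.6%) and 6 lower (42.9%). The lower ones include the adjacent genes Mur18B (-3.29, adjusted p = 0.00125) and Muc18B (-3.42, adjusted p = 0.0021), both near the lowest value in Wg++.

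Genes of denticles and of the apical matrix, which shape the hooked cell extensions of the larval belly, were lower in Wg++ or did not pass. Of 18 tested, 10 were lower (55.6% beside 18.3% of all genes) and 0 were higher. At an unadjusted p under 0.05 there were 12 lower and 0 higher, and the median was -1.48. The list averaged 5.44 and 5.62 in Wg++, 6.81 and 6.98 in Otk++ and 6.14 and 6.94 in WT. dyl, which encodes a zona pellucida domain protein of the apical surface, read 4.59 and 4.04 in Wg++, 7.64 and 8.31 in Otk++ and 7.81 and 7.48 in WT (difference -3.66, standard error 0.43, adjusted p = 0.000403). CG9095 read 6.43 and 6.85 in Wg++, 9.24 and 9.62 in Otk++ and 9.12 and 9.61 in WT (difference -2.79, adjusted p = 0.000199). For dyl and CG9095 the Otk++ and WT arrays overlapped and the Wg++ arrays lay well below both. CG16798 (-1.87, adjusted p = 0.00195) and dy, another zona pellucida domain gene (-1.75, adjusted p = 0.00218), were lower as well.

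Digestive enzymes formed the other large group of falls. Over all genes 18.3% were lower and 18.0% higher. Jonah proteases had 6 of 11 members lower (54.5%) and 1 higher (9.09%), and trypsins had 4 of 9 lower (44.4%). Maltases and amylases had 5 of 9 lower (55.6%) and 1 higher (11.1%), and other larval midgut genes had 7 of 18 lower (38.9%). Their medians were -1.5, -1.23, -1.19 and -0.74, and without Otk++ replicate 2 they were -0.83, -0.43, -0.33 and -0.18. The trypsin lambdaTry read 2.53 and 2.39 in Wg++, 6.66 and 7.24 in Otk++ and 6.76 and 6.07 in WT (difference -4.49, standard error 0.28, adjusted p = 1.58e-05). LManV, a lysosomal alpha-mannosidase gene, read 3.9 and 3.15 in Wg++, 7.35 and 8.57 in Otk++ and 8.53 and 7.79 in WT (difference -4.44, adjusted p = 0.000177). In both genes the Wg++ arrays were also below the WT arrays, while their separation from the Otk++ arrays follows from the call. Mal-A1 (-2.97, adjusted p = 0.00195), Mal-A4 (-2.68, adjusted p = 0.00883) and Jon25Bi (-3.35, adjusted p = 0.00364) were also near the lowest value in Wg++. Mal-B2, a maltase of another cluster, went the opposite way (1.4, adjusted p = 0.00581). Trypsin calls depended on single arrays, with 7 lower without Otk++ replicate 1, 2 without Wg++ replicate 1 and 1 without Otk++ replicate 2, and the higher Jonah call was kept without Otk++ replicate 2 only. Without Otk++ replicate 1 the other midgut genes gave 11 lower.

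Known transcriptional targets of Wg were called in both directions in Wg++ against Otk++. Of 9 tested, 1 was higher (11.1% beside 18.0% of all genes) and 4 were lower (44.4% beside 18.3%). For a list of 9 genes the higher share is not far from that of all genes. Their median was -0.58. Notum, which encodes a secreted feedback inhibitor that cleaves the lipid from Wnt proteins, was the one that rose, at 4.6 and 4.72 in Wg++, 4.35 and 3.76 in Otk++ and 3.46 and 3.78 in WT (difference 0.6, adjusted p = 0.0831). Its call was lost without Wg++ replicate 1, Wg++ replicate 2 or Otk++ replicate 2. The feedback receptor gene fz3 did not pass (0.57, 95% interval -0.1 to 1.25, adjusted p = 0.182). Neither did the segment gene en, at 7.11 and 7.17 in Wg++ and 7.7 and 7.43 in Otk++ (-0.43, 95% interval -0.97 to 0.11), nor Dll (-0.4, although a dimmer probeset was called at -0.71), lbl (-0.47) and slp2 (-0.58), of which slp2 was called lower without Otk++ replicate 2.

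Among the targets that were lower, vg, a wing selector gene, read 2.35 and 2.6 in Wg++ and 3.6 and 3.47 in Otk++ (-1.06, adjusted p = 0.00518), with a Wg++ mean near the floor, and another vg probeset gave no call. dpp, a BMP ligand that Wg restrains or activates by tissue, read 4.97 and 4.51 in Wg++ and 6.29 and 5.92 in Otk++ (-1.36, adjusted p = 0.0174), a call lost without Wg++ replicate 2. nkd, an intracellular feedback inhibitor, read 7.28 and 7.46 in Wg++, 8.13 and 8.22 in Otk++ and 7.42 and 7.74 in WT (-0.8, adjusted p = 0.0636). The calls of nkd and of Dtg (-1.59) were each lost without any 1 of the 4 arrays. For dpp, nkd and Dtg the WT arrays lay below the Otk++ arrays. The lower count was 1 without Wg++ replicate 2 and 2 without Wg++ replicate 1 or Otk++ replicate 1.

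Core components of the canonical pathway were called in both directions. Of 13 tested, 4 were higher (30.8% beside 18.0% of all genes) and 2 lower (15.4% beside 18.3%). The receptor genes arr, fz and fz2, and also dsh, sgg and Apc2, had no single-gene probeset and were not tested. The median was 0.28, but -0.05 without Otk++ replicate 2, 0.04 without Otk++ replicate 1 and 0.18 without Wg++ replicate 1. No member was called in either direction without Wg++ replicate 2, the higher count was 2 without Wg++ replicate 1, and the lower count was 0 after cyclic loess. The lower ones were slmb, a ubiquitin ligase subunit gene (-0.59, adjusted p = 0.0748), and dlp. The higher ones were CtBP, a transcriptional corepressor (1.29, adjusted p = 0.0323, but 0.65 and no call on its brighter probeset), nej, the CBP acetyltransferase (1.5, adjusted p = 0.0339), gish, a casein kinase (0.92, adjusted p = 0.0499), and Axn, the scaffold that holds Armadillo for destruction (0.69, adjusted p = 0.0747). Each of these also lost its call without Otk++ replicate 2. The heparan sulphate proteoglycan gene dally, which helps to spread Wg, gave a firmer difference, with 4.89 and 5.1 in Wg++, 6.5 and 6.53 in Otk++ and 5.78 and 5.96 in WT (-1.52, standard error 0.26, adjusted p = 0.00235). dlp, which encodes a related proteoglycan, was higher than WT in Otk++ (1.22, adjusted p = 0.0675) and lower in Wg++ than in Otk++ (-0.65, adjusted p = 0.033), the latter call being lost without Wg++ replicate 2 or Otk++ replicate 1. The TCF gene pan read 5.49 and 5.73 in Wg++ and 6.11 and 5.42 in Otk++, with overlapping arrays (-0.15, 95% interval -0.85 to 0.54). The destruction complex kinase CkIalpha also overlapped (-0.07, 95% interval -0.69 to 0.56), as did porcupine, por, which adds the lipid to Wnt proteins (0.00, 95% interval -0.33 to 0.33).

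**Figure D3:**
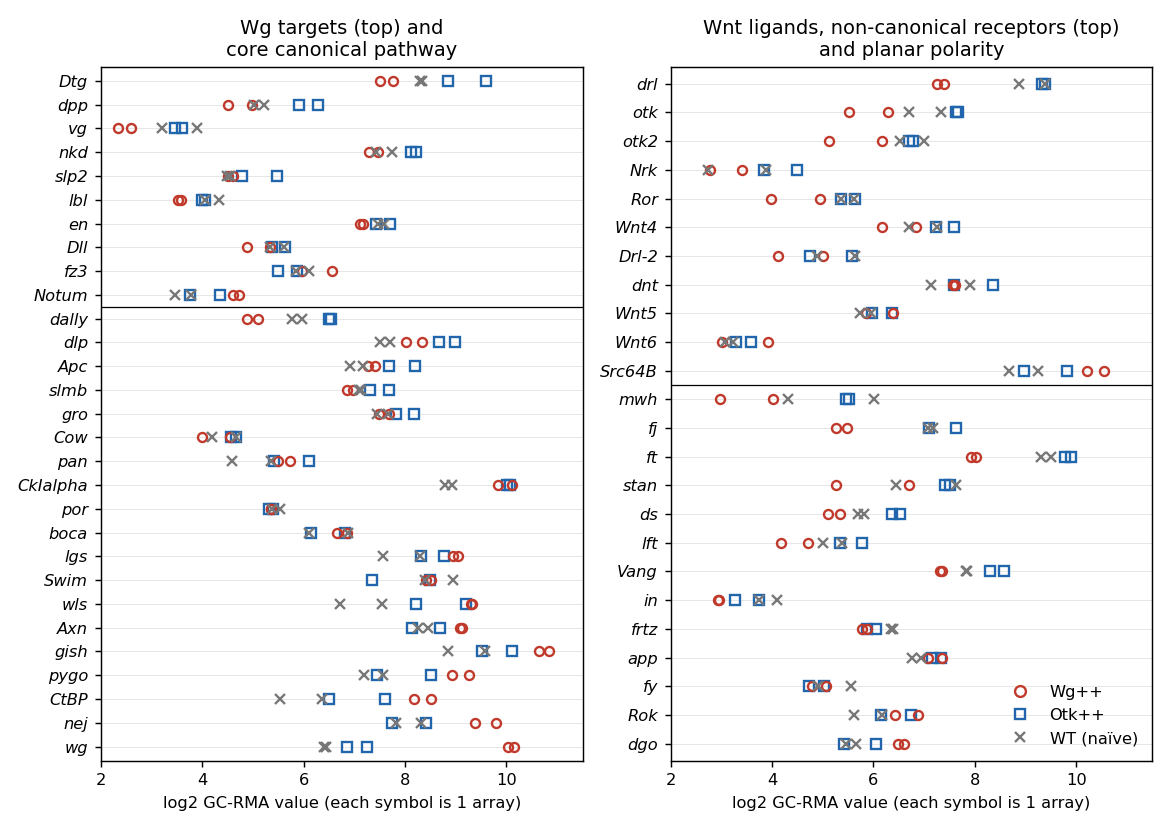
Log2 GC-RMA value of each array of Wg++ (red circles), Otk++ (blue squares) and WT (grey crosses) for Wg targets and core canonical genes on the left, and for Wnt ligands, non-canonical receptors and planar polarity genes on the right, each block ordered by Wg++ minus Otk++. wg has the largest separation, and in drl, otk, fj and ft the Wg++ arrays lie below the other 4.

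Of 8 tested genes in the list of other Wnt ligands and non-canonical receptors, 5 were lower (62.5% beside 18.3% of all genes) and 0 higher. Their median was -1.06 (-0.56 without Wg++ replicate 1). Besides otk, the gene overexpressed in Otk++, the lower ones were drl, otk2, Ror and Nrk, while the Ryk family genes Drl-2 (-0.61, 95% interval -1.84 to 0.62) and dnt (-0.38, 95% interval -1.15 to 0.38) did not pass. drl, the Ryk receptor for Wnt5 in axon guidance, read 7.26 and 7.39 in Wg++, 9.32 and 9.38 in Otk++ and 8.87 and 9.38 in WT (-2.03, standard error 0.2, adjusted p = 0.000194). Its Wg++ arrays were below all Otk++ and WT arrays, which overlapped each other. otk2, the adjacent paralogue of otk, read 5.13 and 6.16 in Wg++, 6.7 and 6.77 in Otk++ and 6.53 and 7.0 in WT (-1.09, adjusted p = 0.0305). The receptor tyrosine kinase genes Ror (-1.03, adjusted p = 0.0403) and Nrk (-1.08, adjusted p = 0.0531) were lower too. The calls of otk2, Ror and Nrk were lost without Wg++ replicate 1, which left 2. Without Otk++ replicate 2 those of otk2 and Ror were lost, which left 3, and without Otk++ replicate 1 that of Nrk.

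The ligand gene Wnt4, whose product binds Otk, read 6.17 and 6.83 in Wg++ and 7.23 and 7.59 in Otk++ (-0.91, adjusted p = 0.0342), a call lost without Wg++ replicate 1 or Otk++ replicate 2. Wnt5 (-0.04, 95% interval -0.58 to 0.5) and Wnt6 (0.03, 95% interval -0.57 to 0.64) had overlapping arrays. Src64B, a Src kinase, was higher in Wg++ (0.98, adjusted p = 0.0368), but not without Wg++ replicate 2 or Otk++ replicate 2. Wnt4, Wnt5 and Src64B, like wg, pan, fz3 and dally, belong to the 11 genes whose probeset has no gene in the platform annotation and are left out of the list counts.

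Planar polarity genes fell more often than they rose, 6 lower and 1 higher of 12 tested, with a median of -0.83. Among all genes tested, 18.3% were lower and 18.0% higher. The list median ran from -1.02 to -0.61 when single arrays were left out. Several of the lower genes belong to the Fat and Dachsous system, in which the giant cadherins Ft and Ds bind each other across cells and the Golgi kinase Fj tunes them. ft, outside the count, read 7.92 and 8.03 in Wg++, 9.89 and 9.77 in Otk++ and 9.49 and 9.3 in WT (-1.86, standard error 0.21, adjusted p = 0.000385). For fj the values were 5.26 and 5.49 in Wg++, 7.63 and 7.09 in Otk++ and 7.18 and 7.07 in WT (-1.99, adjusted p = 0.000579), and for ds 5.11 and 5.34 in Wg++, 6.52 and 6.36 in Otk++ and 5.69 and 5.81 in WT (-1.22, adjusted p = 0.00253). In these 3 genes the Wg++ arrays were below all Otk++ and WT arrays. lft, a cytoplasmic partner of Ft and Ds, was lower by a similar amount (-1.12, adjusted p = 0.00609). Of the Frizzled and Van Gogh core, fz, dsh and pk had no single-gene probeset and were not tested. Vang was lower (-1.1, adjusted p = 0.0103), and stan was lower only while Wg++ replicate 1 and Otk++ replicate 2 were both kept (-1.48, adjusted p = 0.0437). dgo was higher (0.8, adjusted p = 0.018) but not without Otk++ replicate 2. mwh, a formin-related effector gene, was lower on 1 of its probesets (-1.99, adjusted p = 0.0139). The effectors fy (0.05) and frtz (-0.13) and the kinase gene Rok (0.2) did not pass.

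In the Hedgehog pathway 4 of 13 genes were higher (30.8% beside 18.0% of all genes) and 3 lower (23.1% beside 18.3%). ci, the transcription factor of the pathway, read 8.08 and 8.35 in Wg++ and 9.51 and 9.32 in Otk++ (-1.2, adjusted p = 0.00253). Its target and receptor gene ptc was lower (-1.52, adjusted p = 0.0226) but not without Otk++ replicate 1, which left 1 lower call. The rises of cos, the kinesin-like scaffold (1.03, adjusted p = 0.0143), and disp, which releases Hedgehog (1.02, adjusted p = 0.0124), were lost without Otk++ replicate 2, as were all 4 higher calls. The higher count was 2 without Wg++ replicate 1 and likewise without Wg++ replicate 2.

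Among segmentation genes 3 of 17 were lower, a share of 17.6% that is close to the 18.3% of all genes. These were bowl (-1.53, adjusted p = 0.0015), mid (-1.0, adjusted p = 0.0078) and hry (-0.76, adjusted p = 0.0273), the last not without Wg++ replicate 2 or Otk++ replicate 2. At an unadjusted p under 0.05 0 were higher and 4 lower. Of the gap and terminal genes 4 of 13 were lower (30.8%), including the head gap gene ems, at 5.07 and 5.36 in Wg++ and 6.8 and 6.84 in Otk++ (-1.61, adjusted p = 0.00201), and knrl (-1.55, adjusted p = 0.000467). The Hox gene Scr read 4.32 and 4.46 in Wg++ and 5.47 and 5.47 in Otk++ (-1.08, adjusted p = 0.00717), and 2 of 5 genes in its list were lower (40.0%). The gap count was 2 without Wg++ replicate 2 or Otk++ replicate 1, the Hox count 1 without Wg++ replicate 1, Otk++ replicate 1 or Otk++ replicate 2.

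Septate junction genes, which build the barrier between epithelial cells, were lower in Wg++ as a group. Of 17 tested, 12 were lower (70.6% beside 18.3% of all genes), 0 were higher and 5 did not pass. At an unadjusted p under 0.05 there were 0 higher, and the median was -1.01. Nrx-IV, a core membrane protein of the junction, read 7.43 and 7.55 in Wg++, 9.33 and 9.12 in Otk++ and 8.36 and 8.8 in WT (-1.74, standard error 0.2, adjusted p = 0.000388). Gli, of tricellular junctions, read 7.51 and 7.73 in Wg++, 8.86 and 9.0 in Otk++ and 8.57 and 8.99 in WT (-1.31, adjusted p = 0.00225), and the claudin gene sinu 8.42 and 8.48 in Wg++, 9.73 and 9.72 in Otk++ and 9.02 and 9.23 in WT (-1.28, adjusted p = 0.00226). The Wg++ arrays were the lowest of the 6 in all 3 genes, and for Nrx-IV and sinu the Otk++ arrays were also above both WT arrays. The lower count stayed between 10 and 11 when single arrays were left out.

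Other epithelial genes followed less evenly. For the counts of this paragraph, the share of lower calls over all genes was 18.3%. The polarity and adhesion list had a median of -0.671. With single arrays left out that median ran from -0.634 to -0.495. Among polarity and adhesion genes 6 of 13 were lower, with l(2)gl, a basolateral polarity gene, at 7.62 and 7.39 in Wg++, 8.74 and 8.82 in Otk++ and 7.63 and 7.84 in WT (-1.27, adjusted p = 0.00101). That gene was also higher in Otk++ than in WT (1.04, adjusted p = 0.075). The E-cadherin gene shg had overlapping arrays (-0.06, 95% interval -1.79 to 1.68). In the tracheal list 3 of 5 were lower, with the FGF receptor gene btl at 3.13 and 2.33 in Wg++ and 4.87 and 4.72 in Otk++ (-2.07, adjusted p = 0.00154). Amnioserosa and dorsal ectoderm genes gave 5 of 11 lower, led by Ance, a peptidase gene (-1.96, adjusted p = 0.000424), with 2 left without Wg++ replicate 1 or Otk++ replicate 1 and 3 without Wg++ replicate 2. Salivary gland genes gave 4 of 9, led by PH4alphaSG1, a prolyl hydroxylase gene (-2.01, adjusted p = 0.000558), and 2 without Wg++ replicate 1.

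Many genes in lists for cell types other than epidermis, regulators among them, were lower in Wg++. In bulk RNA, fewer cells of a type and less RNA per cell cannot be told apart. The lower calls were 4 of 10 for neuron function, 6 of 12 for neuroblasts, 5 of 6 for glia, 6 of 11 for mesoderm and endoderm regulators, 4 of 13 for muscle, 8 of 11 for hemocytes and 2 of 2 for fat body. The share of lower calls over all genes was 18.3%, and muscle (30.8%) and neuron function (40.0%) came nearest to it. Only 2 of the 7 listed fat body genes were tested. No member of these 7 lists was higher by limma, at the adjusted or at an unadjusted p under 0.05. Medians ran from -0.58 for neuroblasts to -1.49 for fat body.

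The glial regulator repo read 4.63 and 5.26 in Wg++, 6.96 and 7.17 in Otk++ and 6.19 and 7.14 in WT (-2.12, standard error 0.37, adjusted p = 0.0027). The neuronal RNA-binding protein gene elav read 7.59 and 8.33 in Wg++, 9.31 and 9.47 in Otk++ and 9.2 and 9.35 in WT (-1.43, adjusted p = 0.00952). The hemocyte peroxidasin gene Pxn read 4.19 and 4.64 in Wg++, 6.07 and 6.61 in Otk++ and 6.35 and 6.19 in WT (-1.92, adjusted p = 0.000836). In each of these 3 genes the Wg++ arrays were below all Otk++ and WT arrays, and none of the 3 was at the floor in Wg++. GATAe, an endoderm regulator (-1.54, adjusted p = 0.00525), grn, a GATA factor (-1.82, adjusted p = 0.000147), htl, the mesodermal FGF receptor gene (-1.11, adjusted p = 0.000968), apolpp, the fat body lipoprotein gene (-1.57, adjusted p = 0.00224), and PPO1, of crystal cells (-3.41, adjusted p = 0.000824), were lower too. The mesoderm gene twi (0.41, 95% interval -0.68 to 1.5) and the hemocyte gene Hml (0.55, 95% interval -0.36 to 1.45) did not pass. Of the other markers, srp (endoderm, -1.09, adjusted p = 0.0164) and peb (amnioserosa, -1.09, adjusted p = 0.0722) were lower. nSyb (neurons, -0.99, adjusted p = 0.141), betaTry (endoderm, -0.12, adjusted p = 0.895) and Doc1 (amnioserosa, -0.18, adjusted p = 0.636) did not pass. Nor did the epidermal markers shg, grh (-0.8, adjusted p = 0.117) and Ddc (0.32, adjusted p = 0.663). Without Wg++ replicate 1 the counts were 1 for neuron function, 2 for neuroblasts and 2 for glia. Without Otk++ replicate 2 they were 1 for neuron function, 3 for glia, 5 for hemocytes and 2 for muscle. The neuroblast count was 3 without Otk++ replicate 1 and the hemocyte count 5 without Wg++ replicate 2.

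**Figure D4:**
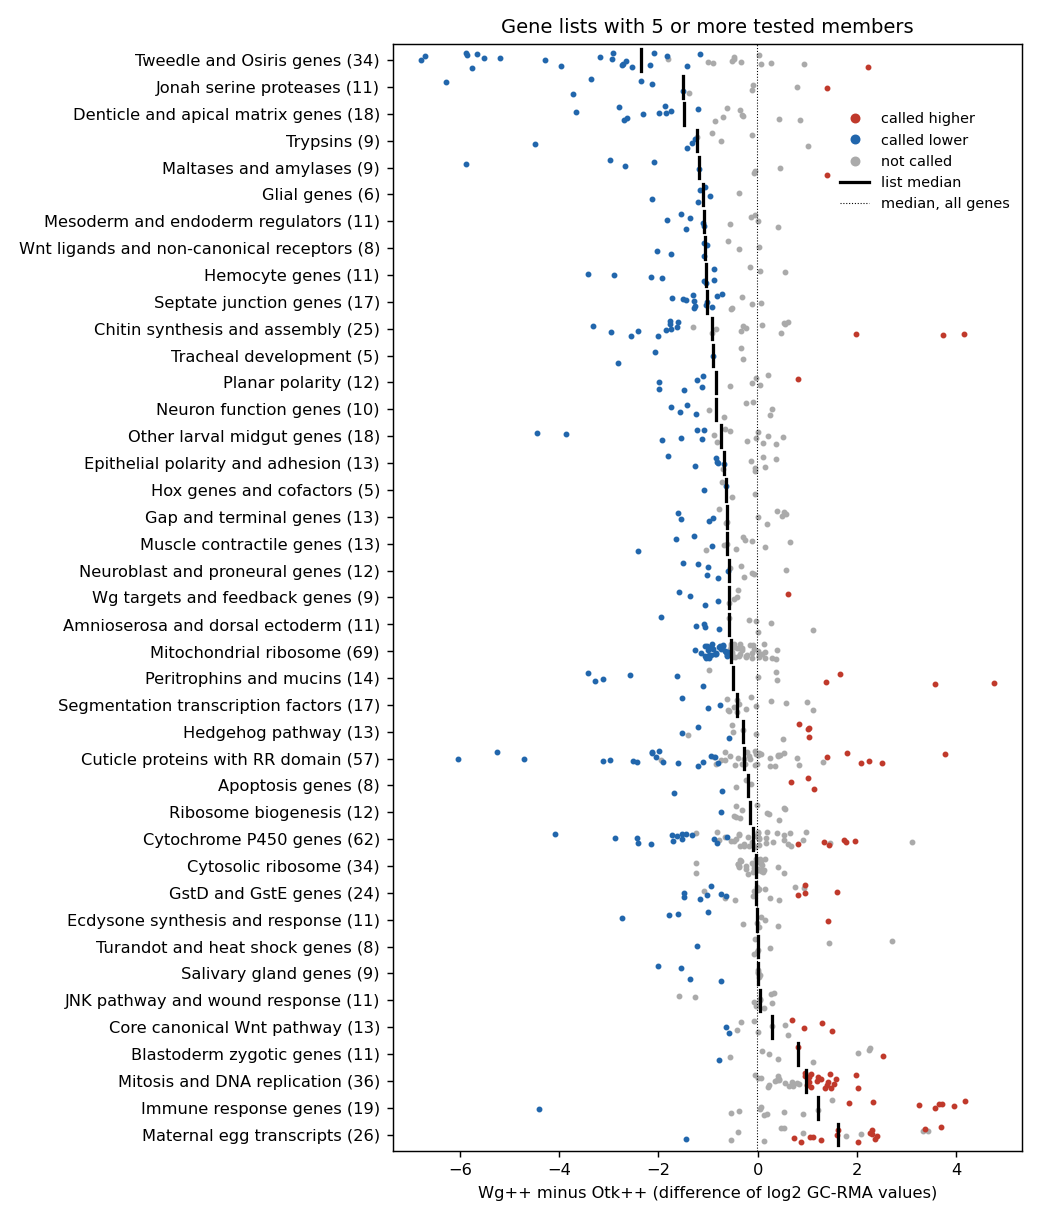
Difference of log2 GC-RMA values, Wg++ minus Otk++, of each tested member of the gene lists with 5 or more tested members, given in brackets. Red marks genes called higher, blue called lower, grey not called, the black bar is the list median and the dotted line the median of all genes, and medians run from -2.35 for Tweedle and Osiris genes to 1.61 for maternal egg transcripts.

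Many transcripts that the mother loads into the egg were higher in Wg++. Of 26 tested in this list of maternal genes, 15 were higher (57.7% beside 18.0% of all genes), and the median was 1.61. The 1 lower call was tsl, a maternal effect gene whose transcript is not taken here to be loaded into the egg. The list averaged 8.18 and 7.78 in the Wg++ arrays, 6.52 and 6.42 in the Otk++ arrays and 6.73 and 6.15 in the WT arrays. plu, whose product controls the early nuclear cycles, read 8.88 and 9.12 in Wg++, 7.08 and 6.11 in Otk++ and 6.82 and 6.09 in WT (2.4, standard error 0.4, adjusted p = 0.00218). wisp, a cytoplasmic poly(A) polymerase gene of the egg, read 10.27 and 10.52 in Wg++, 8.7 and 8.04 in Otk++ and 8.51 and 8.16 in WT (2.02, adjusted p = 0.00288), and swa, needed to localise bcd mRNA, 9.29 and 9.49 in Wg++, 7.17 and 6.88 in Otk++ and 7.58 and 6.36 in WT (2.36, adjusted p = 0.00604). Both Wg++ arrays were above the other 4 in these genes, while the Otk++ and WT arrays overlapped. The germ cell marker osk did not pass (2.09, adjusted p = 0.189), and the 2 tested eggshell and yolk genes were not called (-0.11 for Yp3, -0.08 for Fcp3C, with none at an unadjusted p under 0.05). The higher count was 5 without Otk++ replicate 2, 6 without Wg++ replicate 1 and 9 without Wg++ replicate 2. Egg transcripts moved with the cuticle, gut and cell type lists above, in the opposite direction, and their part in those results was not tested.

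Genes of mitosis and DNA replication rose in the same direction. Of 36 tested, 19 were higher (52.8% beside 18.0% of all genes) and 0 were lower by limma (0 at an unadjusted p under 0.05). Their median was 0.98. The condensin gene glu read 9.39 and 9.8 in Wg++, 8.01 and 7.15 in Otk++ and 7.88 and 7.84 in WT (2.01, standard error 0.35, adjusted p = 0.00246). Caf1-180, of the chromatin assembly factor that follows replication, read 9.6 and 10.07 in Wg++, 8.17 and 7.55 in Otk++ and 7.55 and 8.2 in WT (1.98, adjusted p = 0.00367), and tum, a centralspindlin gene, 10.43 and 10.39 in Wg++, 9.29 and 8.56 in Otk++ and 8.69 and 8.39 in WT (1.48, adjusted p = 0.00731). The Wg++ arrays were above the other 4 in all 3 genes. Of the replicative helicase, Mcm6 rose (1.19, adjusted p = 0.00744). Without Otk++ replicate 2 the count was 7 and the median 0.59, and without Wg++ replicate 1 or Wg++ replicate 2 it was 11. Many transcripts of this list are also loaded into the egg.

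Genes of the cellular blastoderm gave 2 higher and 1 lower of 11, and none of these calls held without Wg++ replicate 1, Wg++ replicate 2 or Otk++ replicate 2, while 5 were higher without Otk++ replicate 1. The share of higher calls, 18.2%, was close to the 18.0% of all genes, and 9.09% were lower beside 18.3%. The cellularisation gene slam was called higher but had spread-out arrays, with 9.59 and 8.74 in Wg++, 8.07 and 5.21 in Otk++ and 8.13 and 9.54 in WT. Its Otk++ arrays differed from each other by more than its Wg++ and WT arrays did. Sry-alpha, of the same stage, read 7.0 and 3.63 in Otk++ and did not pass (2.26, adjusted p = 0.118), though it was called without Otk++ replicate 1. Otk++ replicate 2 was thus the lowest array for both genes.

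Genes of mitochondrial ribosomal proteins were called lower in 29 of 69 cases (42.0% beside 18.3% of all genes), with a median of -0.54. mRpL43 read 5.23 and 5.18 in Wg++, 6.5 and 6.42 in Otk++ and 6.92 and 6.49 in WT (-1.26, adjusted p = 0.00195), and mRpS25 6.12 and 5.99 in Wg++, 7.01 and 7.22 in Otk++ and 7.13 and 7.23 in WT (-1.06, adjusted p = 0.00216). The Wg++ arrays were the lowest of the 6 in both genes. The count was 19 after cyclic loess, 15 without Wg++ replicate 1 and 11 without Otk++ replicate 2. Cytosolic ribosomal proteins gave 0 higher and 0 lower calls of 34 by limma, 1 higher and 3 lower at an unadjusted p under 0.05, and a median of -0.05. Of 12 ribosome biogenesis genes 1, the pseudouridine synthase gene Nop60B, was lower (-0.75, adjusted p = 0.0149). That call was lost without Otk++ replicate 1, and the brighter Nop60B probeset gave -0.44 and no call.

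Several antimicrobial peptide genes were higher in Wg++. Of 19 tested immune genes 8 were higher (42.1% beside 18.0% of all genes) and 1 was lower. Their median was 1.22, but 0.22 without Otk++ replicate 1 and 1.9 without Otk++ replicate 2. The higher ones include Bomanins, short peptides secreted in the Toll response. BomBc3 read 7.64 and 6.97 in Wg++, 2.35 and 3.9 in Otk++ and 4.52 and 4.08 in WT (4.18, standard error 0.81, adjusted p = 0.00449), and its neighbour BomT3 read 7.45 and 6.46 in Wg++, 2.31 and 3.7 in Otk++ and 3.88 and 4.25 in WT (3.96, adjusted p = 0.00195). BomT2, another Bomanin gene, read 6.37 and 5.92 in Wg++, 2.5 and 3.29 in Otk++ and 2.67 and 2.32 in WT (3.25, adjusted p = 0.00253). In all 3 Bomanins the Wg++ arrays were above every other array and at least 1 Otk++ array was near the lowest value. The one that was lower, Drsl5, of the Drosomycin family, read 4.57 and 6.7 in Wg++, 10.22 and 9.87 in Otk++ and 9.09 and 8.85 in WT (-4.41, adjusted p = 0.000669).

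None of 11 JNK pathway and wound genes was called by limma, none at an unadjusted p under 0.05, and their median was 0.05. bsk, the gene of the JNK kinase itself, did not pass on the probeset used (-1.58, adjusted p = 0.16), while its brighter probeset was called lower (-1.12, adjusted p = 0.0051 over all probesets). The list had 1 lower call with the brightest probesets and likewise with only the 4 arrays. The caspase genes Dronc (1.13, adjusted p = 0.0307) and Damm (1.01, adjusted p = 0.0223) were higher, the latter call being lost without Wg++ replicate 2 or Otk++ replicate 1 and the former without Wg++ replicate 1 or Otk++ replicate 2. The death inducers grim (-0.72, adjusted p = 0.0044) and skl (-1.7, adjusted p = 0.0128) were lower, grim from a Wg++ mean near the floor and skl not without Wg++ replicate 1. Of 8 apoptosis genes 3 were higher (37.5% beside 18.0% of all genes) and 2 lower. The higher count became 1 without Wg++ replicate 1, Wg++ replicate 2 or Otk++ replicate 2. Of 8 Turandot and heat shock genes 1, the mitochondrial chaperone gene Hsp60A, was lower (-1.22, adjusted p = 0.00968). Hsp26 read 10.28 and 7.86 in Wg++ and 5.95 and 6.8 in Otk++ and did not pass (2.69, adjusted p = 0.174).

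Of 24 GstD and GstE detoxification genes 4 were higher (16.7%) and 7 lower (29.2%), and of 62 cytochrome P450 genes 6 were higher (9.68%) and 15 lower (24.2%). Over all genes the shares were 18.0% and 18.3%, so that neither list was called more often in the higher direction. Cyp28d2 read 3.07 and 3.34 in Wg++, 6.58 and 8.0 in Otk++ and 7.86 and 7.89 in WT (-4.08, adjusted p = 0.000125), the Wg++ arrays far below the rest. GstE6 was lower (-1.16, adjusted p = 0.000923) and GstD9 higher (1.6, adjusted p = 0.0012). Without Wg++ replicate 1 the lower counts were 3 and 9 and the higher counts 2 and 3. The Gst counts were also 2 higher without Otk++ replicate 1 and 3 lower without Otk++ replicate 2. Of 11 ecdysone genes 4 were lower (36.4%), including the nuclear receptor genes Hr3 (-1.8, adjusted p = 0.0016) and EcR, the hormone's receptor (-1.0, adjusted p = 0.00744). The nuclear receptor gene ftz-f1 was higher (1.41, adjusted p = 0.0047), while its other probeset, with the higher mean signal, gave a difference of 0.16 and no call.

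Active and dominant negative Armadillo gave a second contrast of canonical signalling, whose means rest on 4 other arrays than those of Wg++ and Otk++. All 16 arrays were fitted together, so both contrasts share the estimate of the spread. arm∆N lacks the region through which Armadillo is degraded, DisArmed is a dominant negative form, and both were expressed in the same maternal background. Of the genes higher in Wg++ than in Otk++, 177 were also higher in arm∆N than in DisArmed, which is 11.1% of the first list and 41.4% of the second. Of the lower genes 212 were shared, 13.1% of the first list and 57.3% of the second. The background of the arm∆N contrast was 4.82% higher and 4.17% lower calls. Another 7 genes (0.439%) of the higher list and 25 (1.54%) of the lower list were called the opposite way. Across the 8871 genes the 2 differences correlated at a Pearson r of 0.458, and genes are not independent replicates.

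All 10 of the largest rises were higher in arm∆N, such as Mco4, at 8.1 and 9.18 in arm∆N and 2.42 and 2.34 in DisArmed (6.26, adjusted p = 8.36e-07), and CG10725, at 12.21 and 12.64 in arm∆N and 7.67 and 6.17 in DisArmed (5.5, adjusted p = 0.000294). The 8 immune genes that were higher in Wg++ were all higher in arm∆N too, BomBc3 by 6.68 (adjusted p = 0.000664). Of the 10 largest falls 3 were lower in arm∆N, namely Jon25Biii (-5.76, adjusted p = 0.000102), Mal-A3 (-4.51, adjusted p = 7.67e-05) and Cpr64Ad (-2.16, adjusted p = 0.0368). Digestive enzymes lower in Wg++ were shared unevenly. Lower in arm∆N than in DisArmed were 1 of 6 Jonah proteases, 3 of 4 trypsins, 4 of 5 maltases and amylases and 4 of 7 other midgut genes. None of the 22 Tweedle and Osiris genes lower in Wg++ was lower in arm∆N, and 2 were higher there. TwdlF read 10.49 and 9.28 in arm∆N and 9.64 and 8.43 in DisArmed and did not pass (0.85, adjusted p = 0.477). None of the 12 septate junction genes and none of the 15 maternal transcripts was called the same way, which is near the share of 4.17% lower and 4.82% higher over all genes, and 3 of the 10 denticle genes were. Notum (2.76, adjusted p = 7.72e-05), fz3 (1.74, adjusted p = 0.00721) and lbl (1.09, adjusted p = 0.00341) were higher in arm∆N than in DisArmed, beside 0.6, 0.57 and -0.47 in Wg++ minus Otk++. The count of this contrast, 798 genes, was 261 without DisArmed replicate 2, 364 without DisArmed replicate 1, 410 without arm∆N replicate 1 and 460 without arm∆N replicate 2. Whether the size of an effect differed between the 2 contrasts was not tested.

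**Figure D5:**
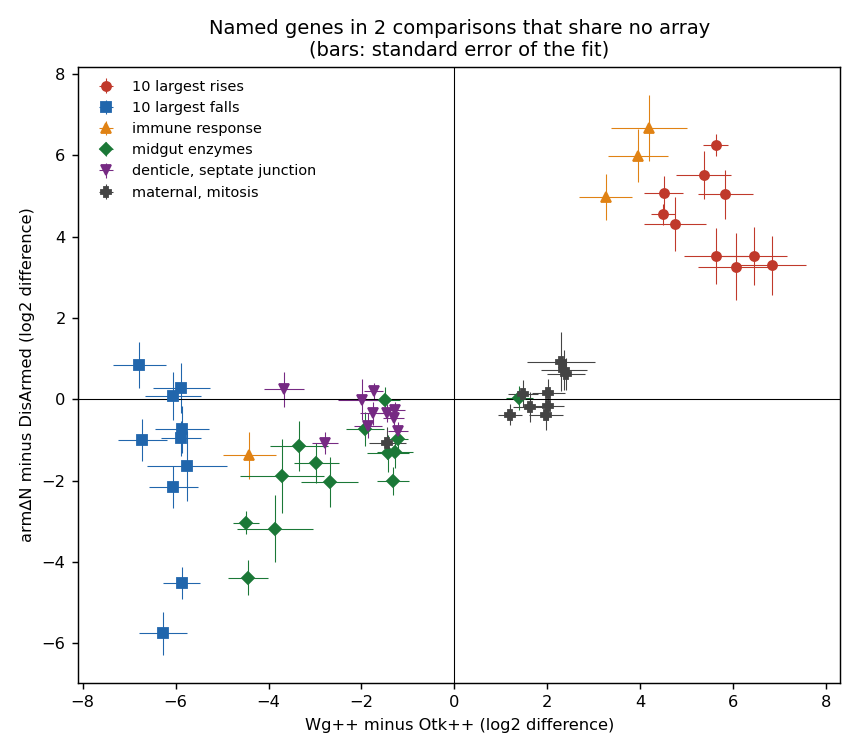
Named genes by their log2 difference in Wg++ minus Otk++ (x axis) and in arm∆N minus DisArmed (y axis), with bars of 1 standard error of the fit, 2 arrays per genotype. The 10 largest rises and the 3 named Bomanins lie at the upper right, and Jon25Biii and Mal-A3 of the 10 largest falls at the lower left. The maternal, mitosis, denticle and septate junction genes spread along the x axis with small values on the y axis.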

How the data were processed

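RNA of pooled naïve embryos was measured on Affymetrix Drosophila 2 arrays, 16 arrays of 8 genotypes with 2 each. The authors deposited log2 values made with GC-RMA (GCRMA in the submitters' processing notes), which corrects background by probe GC content and normalizes between arrays. Its version is not given in the sources used here. Values ran from 2.2892, a floor that occurs on all 16 arrays, to 13.7705. The number of arrays limits the precision.

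The platform annotation gives 1 gene for 13647 of the 18952 probesets, several for 402 and none for 4903. Entrez IDs of 13544 matched a RefSeq gene list (assembly Release 6 plus ISO1 MT), from which names and neighbours were taken. A further 11 probesets (wg, pan, fz3, Wnt4, Wnt5, dally, Apc, pygo, lgs, Src64B, ft) were named through a supplementary table of the study that lists these data, so they stay out of list counts. Each gene was represented by its probeset of widest interquartile range, if that exceeded 2.5 in 2 arrays or more. All 16 arrays entered 1 linear model in limma 3.58.1 (R 4.3.3) with 1 coefficient per genotype (residual degrees of freedom 8, prior 2.726). Calls needed an absolute fold change above 1.5 and a Benjamini-Hochberg FDR under 10% over 8871 genes. Intervals are at 95%.

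Members, lists and tests were chosen with earlier results of these data known. Named were the 10 largest rises and falls among calls without overlap of the 4 arrays, wg, otk, bcd, nos and tsl, all members of the 4 Wnt lists, and up to 4 members of every other list with the lowest adjusted p, besides cell type markers. CG14500 and Twdlalpha were named after their values were seen. For genes with several probesets, other probesets are given for some genes whose calls differ between them.

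Alternatives were an FDR under 5%, no expression filter, a minimum of 4, the brightest probeset per gene, a trended robust prior, cyclic loess, a replicate block, a fit restricted to the arrays compared, and each array left out. With 1 array left out, the lone array is assumed to vary like the others. On simulated data for Wg++ against Otk++ with 8871 genes, calls were made for 40 of 100 genes given a log2 change of 1, for 84 of 100 given a change of 2 and for 7 of 8671 left unchanged. The noise was independent and normal, and the genotypes did not differ otherwise. Far fewer genes changed there than the 3217 called in the data, so these rates do not describe this comparison. Promoter motifs were not examined.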

Additional observations from a re-analysis of the deposited data

Results flagged for a closer look

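CG14500 and Cpr67Fa1 were called against WT in opposite directions in the 2 genotypes, and their direct difference passed the test as well. CG14500 read 5.08 and 5.09 in Wg++, 2.42 and 2.4 in Otk++ and 3.9 and 3.36 in WT, a difference of 2.68 between Wg++ and Otk++ (adjusted p = 5.67e-05). The Otk++ arrays were near the lowest value, so that size is uncertain. Cpr67Fa1, a cuticle protein gene, read 5.42 and 5.39, 7.7 and 7.97 and 6.17 and 6.2, a difference of -2.43 (adjusted p = 0.000342). The calls of Otk++ against WT rest on adjusted p = 0.075 for CG14500 and 0.0695 for Cpr67Fa1, and that comparison changes with single arrays.

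Probesets without a gene in the annotation, which enter no count of the report, also differed. In a fit over all 18952 probesets, 84 of 4892 such probesets were called higher and 146 lower in Wg++ than in Otk++. Their identity is not known here.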

How the results depend on the processing

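Of the 3217 calls between Wg++ and Otk++, 14 changed sign when the brightest probeset of the gene was taken, and none changed sign under the other alternatives run. The count of genes that differed between Wg++ and Otk++ stayed within 1.5 times of 3217 except for 2041 with only the 4 arrays, and it ran from 1734 to 3460 when 1 array was left out. Of the 3217 genes 1657 were called without Otk++ replicate 2 and 1890 without Wg++ replicate 1. Wg++ minus WT, with 3625 calls, ran from 2384 to 3217 with 1 array left out. Otk++ minus WT, with 29 calls, gave 2 at an FDR under 5%, 68 without an expression filter, 16 with a minimum of 4, 17 with the trend and robust prior and 0 with only its own arrays (610 at an unadjusted p under 0.05), and it ran from 2 to 841 with 1 array left out. arm∆N minus DisArmed, with 798 calls, gave 515 at an FDR under 5% and ran from 261 to 460 with 1 array left out. Of the 215 named genes, 33 lost their call without Wg++ replicate 1, 33 without Otk++ replicate 2 and 33 with only the 4 arrays.

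Deviations of same-numbered arrays correlated over 0.1 in 19 of 28 pairs of genotypes (19 of 21 without DisArmed; 0.223 for Wg++ with Otk++; range -0.528 to 0.675). As this did not hold for every pair and the labels do not say what a number marks, pairing was not assumed, and whether a number marks a shared batch is not known. With the replicate number as a block the counts were 3739 for Wg++ minus Otk++, 4093 for Wg++ minus WT, 403 for Otk++ minus WT and 1174 for arm∆N minus DisArmed. Values near the floor of the arrays carry no order, and 2 arrays per genotype limit what small differences can be called.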
